A study of Mus musculus with 6 samples.

Results

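Fibroblast growth factors (FGFs) and their receptors were measured in RNA labelled as from spermatogonia, the dividing germ cells that feed sperm production, of Zfp145 knock out mice (Null) and of wild-type mice (WT). Zfp145, now named Zbtb16 and also called PLZF, is a transcriptional repressor needed to keep the spermatogonial stem cell pool. All mice were 1 week old and of a mixed background, given in the labels as 129sv/c57Bl6 and, on the other chips, 129sv-C57Bl/6 or 129sv-C57BVl-6. Neither the deleted stretch of Zfp145, nor the number of animals, nor whether 1 RNA extract served all chips is stated in the labels. The 6 arrays are 1 Null and 1 WT array for each of 3 Affymetrix chips (U74Av2, U74Bv2 and U74Cv2) with separate sets of probes. There were thus no replicates, and differences are reported by size with no p-value.

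The genes described are 6 ligands (Fgf1, Fgf2, Fgf7, Fgf8, Fgf9 and Fgf10) and the 4 receptor tyrosine kinases Fgfr1, Fgfr2, Fgfr3 and Fgfr4. They were found as every probe set annotated with 1 of these symbols and no other, which gave 22 of 36701 probe sets and 10 of 15964 named genes. U74Av2 held 13 of the probe sets and all 10 genes, U74Bv2 held 2, both for Fgf9, and U74Cv2 held 7, for Fgf8, Fgf10, Fgfr1 and Fgfr2. A probe set is a group of short oligonucleotides read together, and its level cannot be set against that of another probe set. Of the 22 probe sets, 9 carried a suffix before "_at" in their name (f, i, r or s), which in this chip design marks probes shared within a gene family, an incomplete set, relaxed design rules or probes shared between transcripts.

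FGFs are secreted proteins that bind their receptors together with heparan sulfate on the cell surface. The paired receptors phosphorylate each other and adaptor proteins and start the MAP kinase cascade, and the cascade switches on its own inhibitors, among them the Sprouty and Spred proteins. In the mouse testis Fgf9 supports Sertoli cell fate in the fetus and acts through Fgfr2, and Fgf2 is a standard supplement for cultured mouse spermatogonial stem cells.

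Values are the intensities as deposited, in arbitrary units. For the ratio of Null to WT, the Null array was first divided by the median ratio of the brighter probe sets of its chip, a log2 shift of at most 0.023. A floor was set at the 40th percentile of both arrays of a chip, which was 98.3 for U74Av2, 165.2 for U74Bv2 and 124.1 for U74Cv2. A probe set above the floor on 1 array gives only a bound, and one below it on both gives no fold. The spread that stands in for an error is how far log2 ratios of a gene's several probe sets on 1 chip lie apart, in 3 classes of level. It was 0.35, 0.27 and 0.15 in the low, middle and high class of U74Av2, and 0.56, 0.47 and 0.31 on U74Cv2. Technical noise and transcript differences enter this spread, and variation between animals does not.

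The targeted gene Zbtb16 read 158.1 in the Null array and 770.2 in the WT array of U74Av2, and 510.8 in the Null array and 1156.8 in the WT array of U74Cv2. Whether these probe sets lie in the deleted part is not known. Genes used as markers of other testis cells were also read above the floor. Of the marker genes on the chips, 11 of 12 germ cell genes, 13 of 14 Sertoli cell genes, 6 of 7 Leydig cell genes and 8 of 8 fibroblast and matrix genes lay above the floor on both arrays, where 70.8% of all genes did. So did 6 of 8 genes of meiotic and haploid germ cells. Lying above the floor therefore does not by itself show that a cell type was present. Because other cells may have added to the RNA, levels of FGF genes cannot be assigned to spermatogonia. Fewer cells of a type also cannot be told apart from less RNA per cell.

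No FGF ligand or receptor was shown to be at least 2-fold different between the Null and WT arrays. Of the 22 probe sets, 7 lay above the floor on both arrays, 2 above it only in the Null array, none only in the WT array, and 13 on neither. Among the 9 with signal over the floor on 1 or both arrays, U74Av2 had 0 of 4 past 2-fold, U74Bv2 had 0 of 1 and U74Cv2 had 0 of 4. Over all probe sets the chips differed in how much they varied: U74Av2 had 0.908% past 2-fold, U74Bv2 had 1.82% and U74Cv2 had 11.1%. The median log2 ratio of the 7 was 0.21, with a range of -0.20 to 0.84, against a median over all probe sets above the floor on both arrays of -0.01 on U74Av2 and 0.00 on U74Cv2. Of the 7 only 2 carry no suffix, both of Fgfr2 and of opposite sign, and their median was 0.02. Of the 7, 6 were higher in the Null array, 2 of 3 on U74Av2 and 4 of 4 on U74Cv2, where 49.3% and 49.7% of all such probe sets were. The 7 come from only 4 genes, and those of Fgfr1 and Fgfr2 are not independent of each other.

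**Figure D1:**
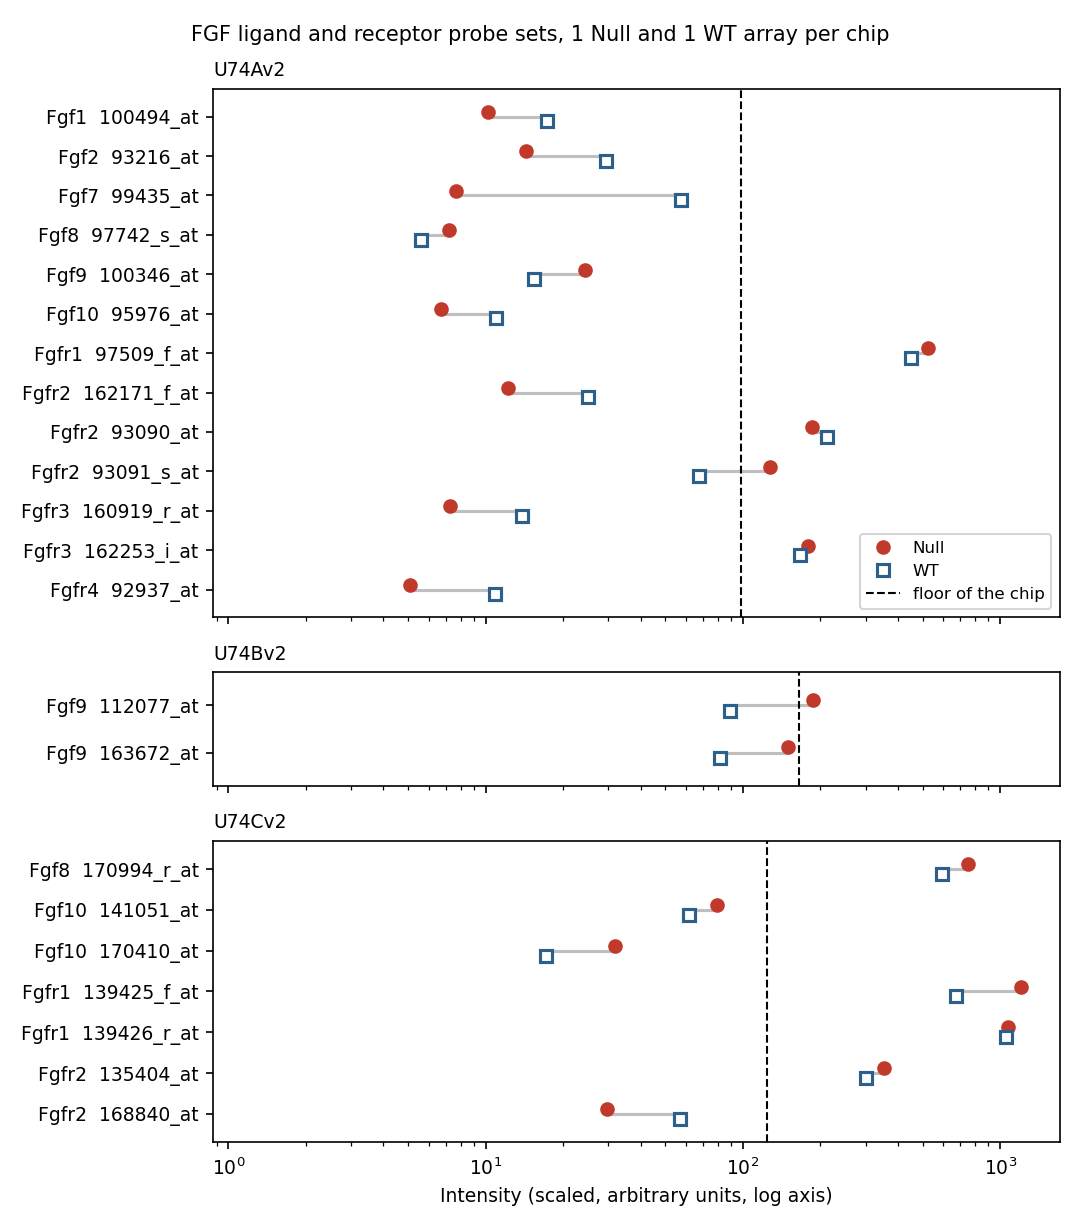
Intensity of each FGF ligand and receptor probe set (scaled, arbitrary units, log axis) in the Null array (filled circles) and the WT array (open squares) of each chip, with the floor of the chip as a dashed line. Receptor probe sets of Fgfr1, Fgfr2 and Fgfr3 and 1 probe set of Fgf8 lay above the floor on both arrays, and all ligand probe sets of U74Av2 lay below it.

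The ligands were mostly below the floor. Only 1 of 11 ligand probe sets (9.09%) was above it on both arrays, against 6 of 11 receptor probe sets (54.5%) and 55.2% of all probe sets. This difference in level between ligand and receptor probe sets is a description, because a probe set's brightness also depends on its probes. Over all genes named Fgf the highest-level probe set was above the floor on both arrays for 4 of 20, against 70.8% of all genes. The 20 include Fgf11, Fgf12 and Fgf14, which act inside cells rather than as secreted ligands, and Fgf11 and Fgf12 are among the 4.

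Fgf8, a patterning factor of the embryo, was the only one of the 6 ligands above the floor on both arrays. Its U74Cv2 probe set 170994_r_at read 760.0 in the Null array and 594.1 in the WT array, a log2 ratio of 0.33. That is 1.26-fold higher in Null and less than the spread of 0.47 for its level. Its other probe set, 97742_s_at on U74Av2, read 7.2 in the Null array and 5.6 in the WT array, far below the floor. The probe sets of Fgf8 thus differ in whether any signal is measured, and the one that does carries the suffix for relaxed design rules.

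Fgf9, the ligand known for Sertoli cell fate in the fetal mouse testis, had 3 probe sets, and each read higher in the Null array. On U74Bv2, 112077_at read 188.1 in the Null array and 88.9 in the WT array. The WT value lay under the floor, so this gives a bound of at least 1.13-fold higher in Null. The other U74Bv2 probe set, 163672_at, read 150.4 in the Null array and 81.1 in the WT array, both under the floor. On U74Av2, 100346_at read 24.6 in the Null array and 15.4 in the WT array, also both under the floor. The result depends on the floor. With the floor at the 20th percentile, 52.3 on U74Bv2, the pair on U74Bv2 stood at log2 ratios of 1.08 and 0.89, that is 2.11-fold and 1.85-fold higher in Null. At that floor 9.44% of all U74Bv2 probe sets were at least 2-fold different.

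The remaining ligands were under the floor in every probe set. Fgf7, the keratinocyte growth factor made by mesenchymal cells, read 7.7 in the Null array and 57.5 in the WT array of U74Av2, both below the floor. Fgf2, basic FGF, read 14.5 in the Null array and 29.3 in the WT array. Fgf1, acidic FGF, read 10.3 in the Null array and 17.3 in the WT array. For these 3 genes the Null value was the lower one, and no fold is given because neither value is above the floor. With no floor, 1318 of the 12422 U74Av2 probe sets were at least 2-fold lower in Null and 570 at least 2-fold higher. Fgf10, a mesenchymal ligand of lung and limb growth, was lower in Null on U74Av2, at 6.7 against 11 in WT. Its U74Cv2 probe sets went the other way, at 80.6 in Null against 61.6 in WT for 141051_at and 32.4 in Null against 17.1 in WT for 170410_at. Values this low had no consistent direction within Fgf10. A low reading does not show that a gene was silent.

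The receptors carried most of the measurable signal. Fgfr1, the widely expressed receptor of mesenchymal and many other cells, was above the floor on both arrays in all 3 of its probe sets and higher in Null in each. On U74Cv2, 139425_f_at read 1227.9 in the Null array and 676.2 in the WT array. Its log2 ratio was 0.84, or 1.79-fold higher in Null, which is 2.67 times the spread of 0.31 for its level. It was the only member probe set at least 1.5-fold different, and on U74Cv2 13.7% of all probe sets over the floor on 1 or both arrays were that much higher in Null. Among the 2094 probe sets of the high class on that chip its ratio stood at the 99.0th percentile.

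The other Fgfr1 probe sets did not show a difference of that size. On the same pair of U74Cv2 arrays, 139426_r_at read 1094.3 in the Null array and 1054.3 in the WT array, a log2 ratio of 0.03. On U74Av2, 97509_f_at read 526.8 in the Null array and 451.3 in the WT array. Its log2 ratio of 0.21 was less than the spread of 0.27. The ratios of the U74Cv2 pair lay 0.81 apart on the log2 scale. Of 149 pairs of bright probe sets of the same gene on that chip, 13 (8.72%) lay at least as far apart. All 3 Fgfr1 probe sets carry a suffix, f or r, so some of their probes may be shared with related sequences.

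**Figure D2:**
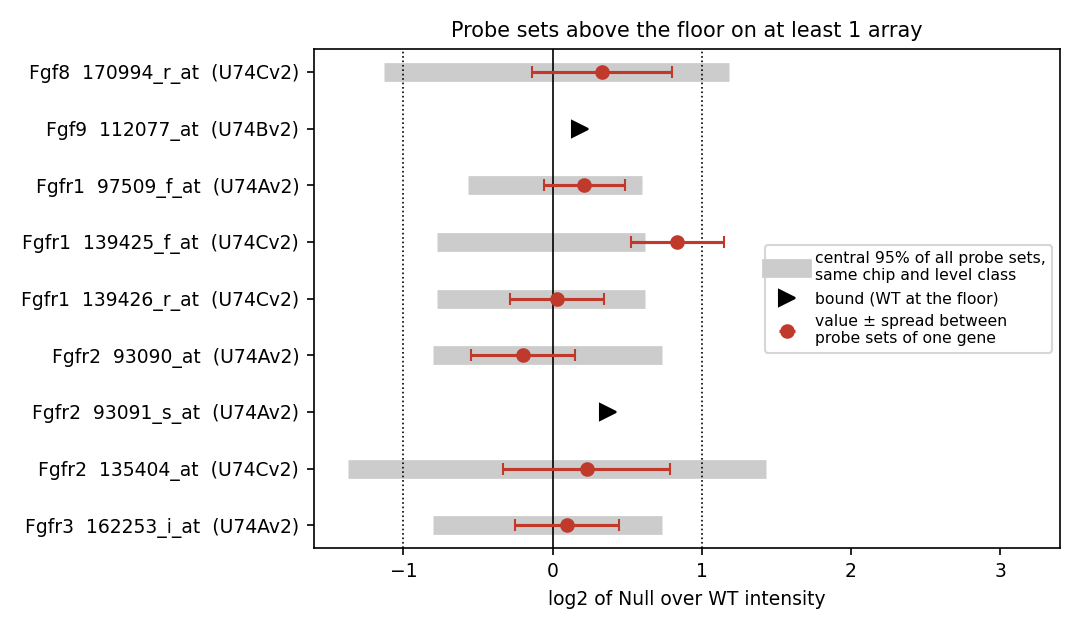
log2 ratio of Null over WT for the 9 probe sets over the floor on 1 or both arrays. Points with bars are values ± the spread among a gene's probe sets, triangles are bounds where WT was at the floor, grey bars hold the central 95% of all probe sets of the same chip and level class, and dotted lines mark 2-fold. Only the Fgfr1 probe set 139425_f_at, at 0.84, lies outside its grey bar, whose upper end is 0.62.

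Fgfr2, the receptor through which Fgf9 acts in the fetal mouse testis, had 5 probe sets with no common direction. On U74Av2, 93090_at read 187.1 in the Null array and 212.9 in the WT array, a log2 ratio of -0.20 against a spread of 0.35. On U74Cv2, 135404_at read 358.0 in the Null array and 300.7 in the WT array, a log2 ratio of 0.23 against a spread of 0.56. Both differences were smaller than the spread, and they had opposite signs. Another, 93091_s_at on U74Av2, read 128.2 in the Null array and 67.7 in the WT array, under the floor in WT, a bound of at least 1.30-fold higher in Null. The remaining probe sets were under the floor on both arrays, 162171_f_at with 12.3 in Null and 25.1 in WT, and 168840_at with 30.0 in Null and 56.8 in WT.

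Fgfr3, a receptor found on undifferentiated spermatogonia in the human testis, had similar values in both arrays of its measured probe set. On U74Av2, 162253_i_at read 179.9 in the Null array and 166.9 in the WT array, a log2 ratio of 0.10 against a spread of 0.35. Its other probe set, 160919_r_at, read 7.3 in the Null array and 13.8 in the WT array, below the floor. Fgfr4, the receptor of bile acid control in the liver, read 5.1 in the Null array and 10.9 in the WT array of U74Av2. Its single probe set was below the floor on both arrays, so no fold is given.

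Markers of other cell types differed alongside these values. The sums given here add scaled levels, so the brightest probe sets weigh most and a sum does not measure cell number. On U74Av2 the summed level of the 8 fibroblast and matrix markers was 21734.7 in the Null array and 15940.8 in the WT array, with a median log2 ratio of 0.58 over the 8 genes on all chips, and 6 of 8 higher in Null. Postn, a matrix protein, was 2.44-fold higher in Null. Counting every probe set of the list on U74Av2, 9 of 12 above the floor on both arrays were higher in Null. There 1 was at least 2-fold higher and 1 at least 2-fold lower. The 6 germ cell markers above the floor on U74Av2 summed to 16406.3 in Null and 13460.0 in WT. Over all chips their list had a median of 0.22, with 8 of 11 higher in Null. Sall4, a zinc finger factor, was 2.5-fold lower, from a probe set with the r suffix on U74Cv2. On that chip 11.1% of all probe sets were past 2-fold. The 11 Sertoli cell markers above the floor on U74Av2 summed to 35711.3 in Null and 41086.9 in WT. Over all chips the Sertoli list had a median of -0.11 with 4 of 13 higher in Null. Rhox5 and Tsx were 2.06-fold and 2.03-fold lower in Null. Much of the Sertoli sum came from Clu, at 14462.6 in Null and 16758.0 in WT, and Aard, at 12001.0 in Null and 13733.2 in WT. Dazl weighed heavily in the germ cell sum, at 6333.8 in Null and 4287.3 in WT. The part of these shifts in the Fgfr1 and Fgf9 values was not tested.

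Of the remaining marker lists, which share a few genes with the pathway lists, the Leydig list differed most in median. Leydig cell markers summed to 4393.9 in Null and 5506.6 in WT over 6 genes, with a median of -0.27, although Hsd17b3, an enzyme of testosterone synthesis, was 2.30-fold higher in Null. Most of both Leydig sums was Nr5a1, at 2970.7 in Null and 3864.1 in WT, a gene also in the list around Fgf9. Peritubular myoid markers summed to 8096.0 in Null and 8578.5 in WT, with a median of -0.08 over 5 genes. The sum of 6 endothelial markers was 2244.1 in Null and 2082.1 in WT, and the median over 7 genes was 0.12. The sum of 7 macrophage markers was 3864.0 in Null and 4176.0 in WT, and the median over 6 genes was -0.18. Markers of meiotic and haploid germ cells had a median of -0.07 over 6 genes. Their sums, over only 3 genes on U74Av2, were 2435.2 in Null and 2535.5 in WT. Of these lists only the Leydig list held a gene at least 2-fold different, where 3.05% of all genes were.

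**Figure D3:**
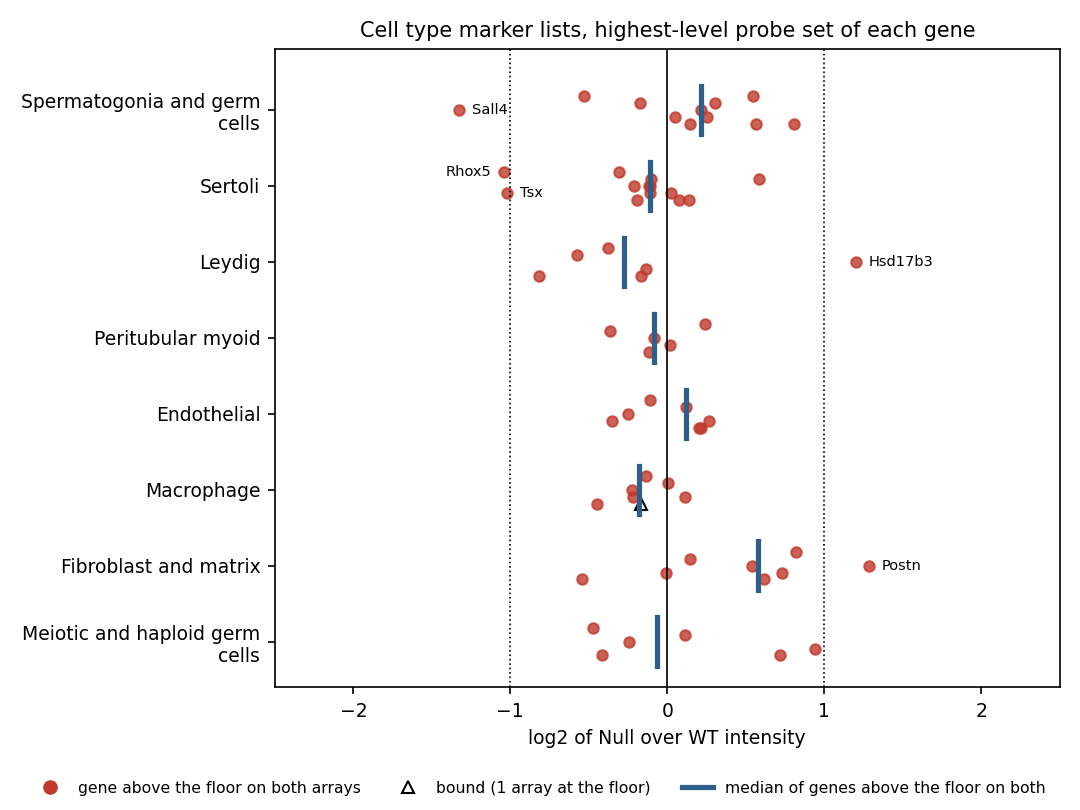
log2 ratio of Null over WT for cell type marker genes, each by its highest-level probe set. Circles are genes above the floor on both arrays, triangles are bounds, blue bars are medians of the circles and dotted lines mark 2-fold. The fibroblast and matrix list has the highest median, 0.58, and the Leydig list the lowest, -0.27.

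The rest of the FGF pathway was read from 7 lists, in which each gene was represented by its highest-level probe set. Among all 12434 genes over the floor on 1 or both arrays, 1.42% were at least 2-fold higher and 1.63% at least 2-fold lower in Null, and of those over it on both 49.0% were higher in Null, with a median log2 ratio of -0.01. The list of other FGF genes had 14 on the chips, 6 above the floor on at least 1 array and 3 above it on both. None was at least 2-fold higher. Fgf14, which acts inside cells on sodium channels rather than as a secreted ligand, read 55.0 in the Null array and 553.6 in the WT array of U74Cv2, a bound of at least 4.46-fold lower in Null. Its other probe set, on U74Av2, read 37.4 in Null and 17.4 in WT, both below the floor. The 3 above the floor on both arrays were Fgf4, Fgf11 and Fgf12, at log2 ratios of -0.41, 0.37 and 0.23. The other Fgf11 probe set, also on U74Av2, went the other way. It read 86.4 in the Null array and 137.3 in the WT array, a bound of at least 1.40-fold lower in Null.

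Among 10 genes of co-receptors and receptor-like or FGF-binding proteins, 7 lay above the floor on both arrays, 3 were higher in Null, the median was -0.05 and none was 2-fold different. Both Klotho co-receptors, Kl and Klb, were below the floor. Flrt3, a membrane protein that binds FGF receptors, read 5980.3 in the Null array and 7387.0 in the WT array of U74Cv2, a log2 ratio of -0.33. Its other probe sets on that chip stood at -0.56 and -0.22, so all 3 were lower in Null, but all carry an f or r suffix. The Flrt3 probe sets on U74Bv2, without suffix, were below the floor and read higher in Null. They stood at 93.0 in Null against 24.7 in WT and at 43.9 in Null against 20.2 in WT. Glg1, a Golgi protein that binds FGFs, stood at -0.13 in its highest-level probe set on U74Bv2 and at 0.11 to 0.34 in its 3 others.

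Heparan sulfate carriers and enzymes, which provide the sugar chains that FGFs bind, had 17 of 21 genes above the floor on both arrays. Of these 9 were higher in Null, the median was 0.18 and none of 19 genes over the floor on 1 or both arrays was 2-fold different. The highest-level genes were Gpc1, a glypican, and Sdc4, a syndecan, both carriers of heparan sulfate chains. Gpc1 read 4234.5 in the Null array and 3074.9 in the WT array of U74Cv2, and 624.2 in the Null array and 410.4 in the WT array of U74Av2. Its log2 ratios were 0.44 and 0.60, above the spreads of 0.31 and 0.27. Sdc4 read 1942.7 in the Null array and 1337.8 in the WT array of U74Bv2, and 1134.7 in the Null array and 894.9 in the WT array of U74Av2. Its log2 ratios were 0.53 and 0.33, against spreads of 0.25 and 0.15, and another probe set, on U74Cv2, gave a bound of at least 2.08-fold higher. Other probe sets of the list on U74Cv2 were past 2-fold lower in Null, 1 of Agrn at 2.27-fold and 1 of Ext2 at a bound of at least 2.98-fold, while both genes' highest-level probe sets, on U74Av2, stood at 0.31 and -0.04. Gpc1 and Sdc4 were higher in Null in each probe set above the floor on at least 1 array.

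Of 18 genes that relay the receptor signal, all lay above the floor on both arrays. Only 7 were higher in Null, the median was -0.08 and none was 2-fold different. The highest-level genes were Ptpn11, the phosphatase SHP2 that links the receptors to MAP kinase, and Pik3r1, the regulatory subunit of PI3 kinase. Ptpn11 read 3653.0 in the Null array and 4179.6 in the WT array of U74Bv2, a log2 ratio of -0.20. Its other U74Bv2 probe set above the floor on both arrays stood at 0.02. A Ptpn11 probe set on U74Av2 read 126.6 in the Null array and 44.9 in the WT array, a bound of at least 1.28-fold higher in Null. Pik3r1 stood at -0.14 on U74Cv2 and at 0.79 on U74Bv2, so its probe sets did not share a direction.

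The list drawn up for inhibitors of the FGF signal also held Lgals3 and Flrt2, which are not established inhibitors. Flrt2 was also in the co-receptor list. Of the 17 genes listed, 16 lay above the floor on at least 1 array. Of these, 3 were at least 2-fold higher in Null and 0 at least 2-fold lower. The median over 15 genes was 0.19, with 9 higher in Null. The 3 were Spred3 and Spred2, which hold back the MAP kinase cascade, and Lgals3. Lgals3 is a galactose-binding lectin better known from macrophages than as an FGF inhibitor. All were read on U74Cv2, where 11.1% of all probe sets were past 2-fold, and in its low level class, where the spread was 0.56 and the central 95% of all probe sets ran from -1.37 to 1.43 on the log2 scale. Spred3 at 1.21 and Spred2 at 1.06 lay inside that range, and Lgals3 at 2.07 outside it. Spred3 read 467.1 in the Null array and 198.6 in the WT array, 2.31-fold higher. Spred2 read 515.0 in the Null array and 243.0 in the WT array, 2.09-fold higher, while its other probe sets stood at -0.14 on U74Cv2 and 0.37 on U74Av2. Lgals3 read 580.7 in the Null array and 136.3 in the WT array, 4.19-fold higher. Its other probe set, on U74Av2, read 73.5 in Null and 52.7 in WT, both below the floor. Without U74Cv2 the count was 0.

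Within the inhibitors, the Sprouty genes, singled out here after their values were seen, went different ways. Spry1 read 619.6 in the Null array and 421.8 in the WT array of U74Bv2, a log2 ratio of 0.55. Spry2 read 371.8 in the Null array and 230.1 in the WT array of U74Bv2, a log2 ratio of 0.69, against spreads of 0.34 and 0.35. Spry4 was lower in Null, with log2 ratios of -0.60 on U74Cv2 and -0.20 on U74Av2, and Spry3 was below the floor. The Sprouty family thus held genes on both sides of 0.

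FGF-responsive transcription factors had 12 of 14 genes above the floor on both arrays, with 8 higher in Null and a median of 0.13. The gene at least 2-fold higher was Bcl6b, which FGF2 and GDNF induce in cultured mouse spermatogonial stem cells. Bcl6b read 365.3 in the Null array and 160.7 in the WT array of U74Cv2, 2.24-fold higher, from a probe set with the f suffix. Its log2 ratio there was 1.16 against a spread of 0.56. Another Bcl6b probe set on U74Cv2 read 47.7 in Null and 31.5 in WT, both below the floor. On U74Av2 Bcl6b read 114.8 in the Null array and 75.8 in the WT array, a bound of at least 1.16-fold higher in Null. Genes that act around Fgf9 in the fetal and young testis had 9 of 12 above the floor on both arrays, 5 of them higher in Null, with a median of 0.07. Wnt4, which opposes Fgf9 in the fetal gonad, read 595.9 in the Null array and 271.9 in the WT array of U74Cv2, 2.16-fold higher, from a probe set with the r suffix. Its other probe set, on U74Av2, read 13.8 in Null and 12 in WT, below the floor. Bcl6b at 1.16 and Wnt4 at 1.11 lay inside the central 95% of their level classes on U74Cv2, whose upper ends were 1.43 and 1.18. Without U74Cv2 neither list had a gene at least 2-fold different.

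**Figure D4:**
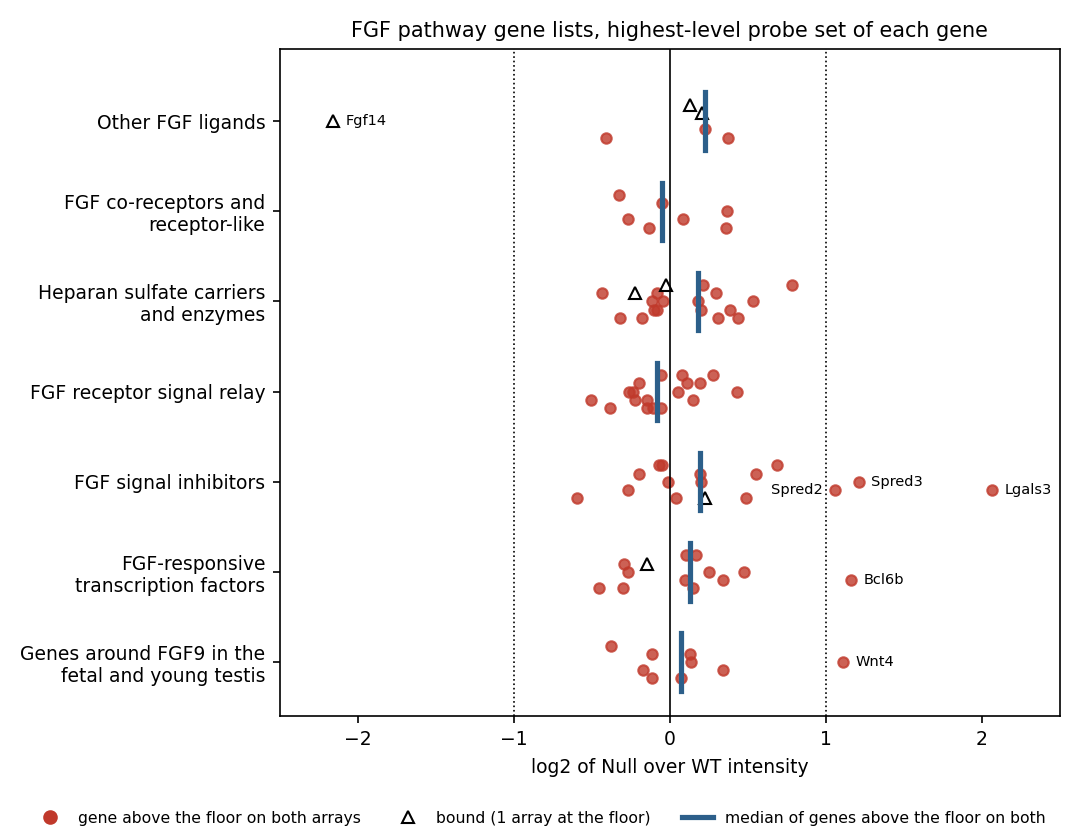
log2 ratio of Null over WT for genes of the 7 FGF pathway lists, each by its highest-level probe set. Circles are genes above the floor on both arrays, triangles are bounds, blue bars are medians of the circles and dotted lines mark 2-fold. The named genes past 2-fold are Fgf14 on the lower side and Lgals3, Spred3, Bcl6b, Wnt4 and Spred2 on the higher side, all read on U74Cv2.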

How the data were processed

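The authors deposited a linear intensity for each probe set. The scanner software, background correction and detection calls are not named in the labels. The mean after trimming 2% at each end was 500.3 on both arrays of U74Av2 and U74Cv2 and 500.1 on both of U74Bv2, so the authors' deposited intensities were scaled array by array. Gene symbols came from GEO's platform annotation. All 10 members matched a RefSeq gene table (GRCm38.p6) with no symbol changed, and no member shared a probe set with another symbol.

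Control probe sets, 66 on every chip, were left out. Scaling, floor and ratio are described above. With 1 array per genotype and chip no test could be made, and probe sets past 2-fold were counted. The number of arrays limits the precision. Every member probe set is given. Named list genes are those past 2-fold, up to 4 a list, and otherwise the 2 of highest level. Fgf4, Fgf11, Fgf12, Kl, Klb, the Sprouty genes, Agrn and Ext2 fall outside this rule and were named after their values were seen. The same holds for Flrt2, Nr5a1, Clu, Aard and Dazl. The members and lists were chosen with earlier results of these data known. Python 3.11.15, numpy 2.4.6, pandas 2.3.3 and statsmodels 0.14.6 were used. Alternatives were other scalings (as deposited, quantile, loess), floors at the 20th and 60th percentiles or none, thresholds of 3-fold and 1.5-fold, probe sets without suffix, and means over probe sets.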

Additional observations from a re-analysis of the deposited data

How the results depend on the processing

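The median log2 ratio of the FGF probe sets above the floor on both arrays was between 0.02 with probe sets without suffix, which leaves 2 of opposite sign, and 0.33 at the 20th percentile floor. Without U74Cv2, a setting chosen after seeing the data, it was 0.10. The count of FGF probe sets at least 2-fold different, 0 on each chip, became 1 on U74Av2 and 1 on U74Bv2 at the 20th percentile floor, and 4 and 1 with no floor. The U74Av2 count was Fgf7 at the 20th percentile floor, a bound of at least 2.18-fold lower in Null, and Fgf7, Fgfr4, Fgfr2 162171_f_at and Fgf2 with no floor, all lower in Null at log2 ratios of -2.91, -1.11, -1.04 and -1.02. The U74Bv2 count was Fgf9, higher in Null. On U74Cv2 it became 1 at the 1.5-fold threshold. At the 20th percentile floor 6.49% of U74Av2 probe sets over it on 1 or both arrays were past 2-fold. Of these 201 were higher and 481 lower in Null. With no floor 15.2% of all U74Av2 probe sets and 17.3% of those on U74Bv2 were past 2-fold. On U74Av2 these were 570 higher and 1318 lower in Null, so the lower side was the commoner one over the whole chip. Fgf9 112077_at and Fgfr2 93091_s_at were bounds whose log2 ratios were 1.08 and 0.91 at the lower floors. The other scalings moved no ratio of a named FGF probe set by more than its spread.

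For the pathway lists, the count past 2-fold in the inhibitor list was 3 and became 0 at the 60th percentile floor and 0 without U74Cv2. It was 1 at 3-fold, which was Lgals3, 2 with means over probe sets and 5 at 1.5-fold. On U74Cv2 13.7% of all probe sets over the floor on 1 or both arrays were at least 1.5-fold higher in Null. That of responsive transcription factors was 1 and became 0 at the 60th percentile floor, at 3-fold, with means over probe sets and without U74Cv2, and 2 with no floor. That of the genes around Fgf9 was 1 and became 0 at the 60th percentile floor, at 3-fold and without U74Cv2, and 2 with no floor. That of the heparan sulfate list was 0 and became 1 at the 20th percentile floor, with no floor and at 1.5-fold. That of the other FGF genes was 1 and became 4 at the 20th percentile floor, 6 with no floor and 0 at the 60th percentile floor or without U74Cv2. The causes were not tested. No paired analysis was possible because each genotype had 1 array per chip. The arrays give no detection calls, so signal over background limits every value near the floor.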
